A study of Mus musculus with 4 samples.

Results

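The serpins, inhibitors of proteases that carry symbols beginning with Serpin in the mouse, were followed across 4 populations of myeloid cells of the large intestine. The 30 genes were chosen by symbol alone, from probe sets that the platform's table assigns to exactly 1 gene, and are 30 of the 12393 genes read on the arrays. They were measured by 39 probe sets, and 8 of the 30 genes had more than 1. A further 3 probe sets name several serpins each and stood at signals of at most 30.2. RefSeq lists 63 protein-coding Serpin genes, of which 33 were not analysed here.

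The populations were taken from the lamina propria of C57BL/6J mice, with no treatment named in the labels, and each was hybridised to 1 Affymetrix 3' array as total RNA. The first, here CX3CR1high cells, carried CD11c and CD11b with much CX3CR1 and is labelled as macrophages. The second, CX3CR1-negative cells, carried CD11c and CD11b without CX3CR1, and its title also calls it DC. The third, CD11c-negative cells, carried CD11b without CD11c and has the title Mf. The last, dendritic cells (DCs), were sorted as high in CD11c and lacking CD11b, with the title CD103. The series title sets it on the transcription factor Spi-C in intestinal CX3CR1high macrophages. The number of mice behind each array and their age are not given in the sources used here. No population has a replicate array, so no test was possible, and every ratio is only as precise as 1 array a side allows.

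Values are linear signal intensities that the authors scaled to 1 common trimmed mean, and they compare populations for 1 gene, never 1 gene with another. The median signal over all probe sets ran from 88.5 in the DCs to 110.2 in the CD11c-negative cells. A floor was set at the pooled median signal, 103, and a ratio with 1 side under it is written as at least N-fold. Calls were made from 2-fold upward, in either direction. Where a gene had several probe sets, their log2 ratios within a pair of arrays had an SD of 0.31 to 0.52, a spread that holds no difference between animals. The ratio of 3' over 5' signals of the Gapdh control, higher in more degraded RNA, was 0.791 in the DCs, 1.08 in the CX3CR1high cells, 2.17 in the CD11c-negative cells and 3.40 in the CX3CR1-negative cells. The same ratio of the Actb control was 1.11, 1.68, 3.18 and 2.76 in that order, so that both were lowest in the DCs but differed on which population was highest, and their part in the ratios below was not tested. All 9 measured macrophage markers reached the floor in the CX3CR1high cells, the CD11c-negative cells and the CX3CR1-negative cells, with summed signals of 122421, 57778 and 43864, and 6 of 9 did in the DCs (8928.5). All 6 measured markers of CD103-type DCs reached it in the DCs, where their sum was 30876, against 5270 to 12631 in the others. Itgax, which encodes CD11c, stood at 1864 in the CD11c-negative cells, gated as CD11c-negative, and at 1826 in the CX3CR1high cells.

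Serpins share a fold with an exposed reactive centre loop that acts as bait. A protease that cuts the loop is trapped on the serpin in a covalent complex, and both are lost. Clade B members mostly stay inside the cell, where they guard against proteases that leak from granules and lysosomes, whereas most other clades are secreted into plasma and matrix. A few members, such as Serpinh1 and Serpinf1, keep the fold without inhibiting proteases.

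Of the 30 serpin genes, 13 reached the floor on at least 1 array, and 8 of these did so on all 4. Over all genes 63.3% reached it on at least 1 array. In clade B 8 of 14 genes reached the floor. In the other clades together 5 of 16 did, with 1 of 8 in clade A, which holds the antitrypsins and other plasma serpins. The 17 genes under the floor on every array had highest signals from 2.86 (Serpina6, the corticosteroid-binding globulin) to 88.3 (Serpini1, neuroserpin), with a median of 20.1. Among them were antithrombin Serpinc1, whose highest signal was 49.7, heparin cofactor Serpind1 (66.8) and the epithelial serpin Serpinb5, also called maspin (50.4). Nearest above the floor was Serpinb9b, with a highest signal of 139, and nearest under it Serpini1.

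The 13 measured serpins differed widely between the populations. Of these, 11 spanned at least 2-fold between the highest and the lowest population, against 41.4% of all genes that reached the floor, and 8 spanned at least 8-fold, against 4.23%. Since a gene needs only 1 high array to pass the floor, these counts do not speak for the other 17 genes. In bulk RNA of this kind, fewer cells with a transcript and less transcript per cell cannot be told apart.

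**Figure D1:**
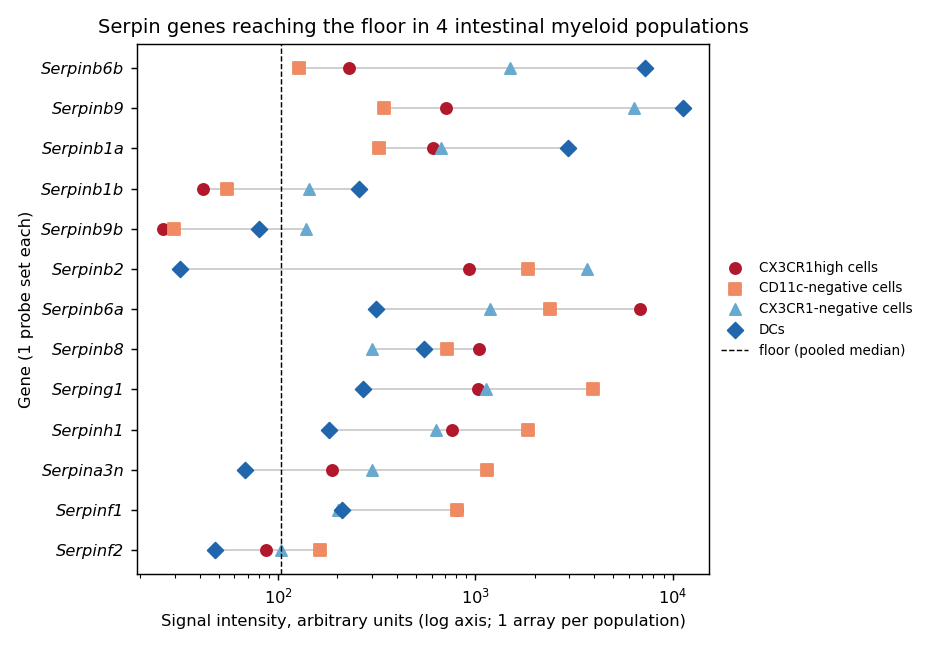
Signal intensity (arbitrary units, log axis) of the 13 serpin genes that reached the floor, 1 probe set per gene and 1 point per population. The DCs hold the highest point for Serpinb6b, Serpinb9, Serpinb1a and Serpinb1b, and the CX3CR1high cells for Serpinb6a and Serpinb8; the points of Serpinf1 for the CX3CR1high cells (804) and the CD11c-negative cells (809) overlie each other.

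Among the clade B serpins that inhibit granzymes or neutrophil proteases, Serpinb6b, Serpinb9 and Serpinb1a had their highest signals in the DCs. Serpinb6a, described below, also inhibits such a protease but had its lowest signal there (313). Serpinb6b, an inhibitor of granzyme A in mice, had a signal of 7224 in the DCs, 1504 in the CX3CR1-negative cells, 229 in the CX3CR1high cells and 127 in the CD11c-negative cells. All 4 values were above the floor, though the lowest was close to it, and each step down the order but the last, 1.80-fold, was over 4-fold. The DCs were 56.7-fold above the CD11c-negative cells, the most extreme of the 6104 ratios measured on both sides in that pair in the direction of the DCs, and 31.5-fold above the CX3CR1high cells, which ranked 3 of 6135. Serpinb9, which inhibits granzyme B and shields cytotoxic lymphocytes and antigen-presenting cells from it, stood at 11285 in the DCs, 6410 in the CX3CR1-negative cells, 713 in the CX3CR1high cells and 346 in the CD11c-negative cells. The DCs and the CX3CR1-negative cells were within 2-fold of each other (1.76-fold). Both stood far above the other populations: the DCs were 15.8-fold over the CX3CR1high cells and 32.6-fold over the CD11c-negative cells, and the CX3CR1-negative cells were 8.99-fold and 18.5-fold over them. Markers of migratory DCs moved with Serpinb9: all of the 6 but Cd83 were at least 2-fold higher in the DCs and in the CX3CR1-negative cells than in either of the others. The chemokine receptor Ccr7 was at 8091 in the DCs, 7927 in the CX3CR1-negative cells, 576 in the CX3CR1high cells and 397 in the CD11c-negative cells, and the part of such cells in the Serpinb9 signals was not tested.

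Serpinb1a, the mouse counterpart of the inhibitor of neutrophil elastase, cathepsin G and proteinase 3, was at 2943 in the DCs, 671 in the CX3CR1-negative cells, 612 in the CX3CR1high cells and 326 in the CD11c-negative cells. Here the DCs stood alone, 4.39-fold above the CX3CR1-negative cells, while the CX3CR1-negative cells and the CX3CR1high cells differed by 1.10-fold. A second Serpinb1a probe set gave 1002 in the DCs and 103 to 171 in the other populations. Its ratio of DCs over CD11c-negative cells, 9.74-fold, was near the 9.02-fold of the first. However, this set is of a type (_s_at) that transcripts can share, and its signal in the CD11c-negative cells, 103, lay at the floor.

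The related genes Serpinb1b and Serpinb9b were near the floor. Serpinb1b was at 256 in the DCs and 143 in the CX3CR1-negative cells, and under the floor at 55.2 in the CD11c-negative cells and 41.4 in the CX3CR1high cells. Its DC signal was at least 2.49-fold above both of the latter. Serpinb9b was above the floor in the CX3CR1-negative cells alone (139), with 80.1 in the DCs, 29.6 in the CD11c-negative cells and 26.1 in the CX3CR1high cells, and its ratio of at least 1.35-fold over each fell short of a call.

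Serpinb6a, a paralogue of Serpinb6b that inhibits cathepsin G, had nearly the reverse order. Its signal was 6823 in the CX3CR1high cells, 2399 in the CD11c-negative cells, 1189 in the CX3CR1-negative cells and 313 in the DCs. The CX3CR1high cells were 2.84-fold above the CD11c-negative cells, 5.74-fold above the CX3CR1-negative cells and 21.8-fold above the DCs. It was measured by a single probe set of a type that can match several transcripts of 1 gene, and the array's match to near-identical serpin paralogues was not checked here. Serpinb8, an inhibitor of the proprotein convertase furin, was also highest in the CX3CR1high cells, at 1045, with 717 in the CD11c-negative cells and 547 in the DCs, and was lowest in the CX3CR1-negative cells, at 299. Only its ratios over the CX3CR1-negative cells passed 2-fold, from the CX3CR1high cells (3.49-fold) and from the CD11c-negative cells (2.40-fold).

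Serpinb2, known as plasminogen activator inhibitor type 2 and strongly inducible in macrophages, followed neither order. It was at 3690.0 in the CX3CR1-negative cells, 1859.6 in the CD11c-negative cells, 929 in the CX3CR1high cells and 31.7 in the DCs. It was under the floor in the DCs alone, and in the same order the 3 populations gated on CD11b were at least 35.9-fold, 18.1-fold and 9.03-fold above them. The CX3CR1-negative cells were 3.97-fold above the CX3CR1high cells. The steps between neighbours in the order, 1.98-fold and 2.002-fold, lay at the limit for a call.

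Most of these clade B genes are neighbours. In RefSeq's mouse annotation (GRCm38.p6) chromosome 13 holds an unbroken run of 16 Serpinb1, Serpinb6 and Serpinb9 genes, of which 9 were measured and 6 reached the floor. Serpinb1a begins the run, and Serpinb6b, Serpinb9, Serpinb9b and Serpinb1b stand at places 3 to 6. All 5 of these had a higher signal in the DCs and in the CX3CR1-negative cells than in the CX3CR1high cells or the CD11c-negative cells, though for Serpinb9b the DC value was under the floor and for Serpinb1a the CX3CR1-negative cells were no more than 1.10-fold above the CX3CR1high cells. Serpinb6a ends the run at place 16, with its lowest signal in the DCs. The 3 measured genes between them, Serpinb9c, Serpinb9g and Serpinb6c, were under the floor on every array. Serpinb2 and Serpinb8 lie in another serpin cluster, on chromosome 1, with Serpinb10 between them.

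The sequences before the starts of the genes on which these contrasts rest were read from RefSeq's promoter table (GRCm38.p6), which held 11 of the 13 measured serpins in 13 windows. The 250 bases before each start are shown 5′ to 3′ on the gene's strand for the opposed paralogues Serpinb6b and Serpinb6a, for the tandem pair Serpinb9 and Serpinb9b, and for Serpinb2. Capitals mark letters matching 1 of 4 motifs searched on both strands: GGAANNGAAA, the composite element of ETS and IRF factors; GAAANNGAAA, the core of the interferon response element; GAGGAAGT, an ETS site of the PU.1 type; and TGANTCA, the AP-1 site. The windows lie at chr13:32965011-32965260 (+) for Serpinb6b, chr13:34002795-34003044 (-) for the start of Serpinb6a that holds a match, chr13:33004291-33004540 (+) for Serpinb9, chr13:33027164-33027413 (+) for Serpinb9b and chr1:107511173-107511422 (+) for Serpinb2.
Serpinb6b: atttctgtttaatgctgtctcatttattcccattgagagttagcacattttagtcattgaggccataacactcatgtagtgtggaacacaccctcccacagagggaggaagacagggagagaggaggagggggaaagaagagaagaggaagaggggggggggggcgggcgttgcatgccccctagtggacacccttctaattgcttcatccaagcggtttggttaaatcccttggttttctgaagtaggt
Serpinb6a: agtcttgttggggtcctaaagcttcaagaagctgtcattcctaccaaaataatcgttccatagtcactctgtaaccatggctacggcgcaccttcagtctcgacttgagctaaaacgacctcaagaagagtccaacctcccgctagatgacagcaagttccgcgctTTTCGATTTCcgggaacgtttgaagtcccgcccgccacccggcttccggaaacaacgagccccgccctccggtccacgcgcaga
Serpinb9: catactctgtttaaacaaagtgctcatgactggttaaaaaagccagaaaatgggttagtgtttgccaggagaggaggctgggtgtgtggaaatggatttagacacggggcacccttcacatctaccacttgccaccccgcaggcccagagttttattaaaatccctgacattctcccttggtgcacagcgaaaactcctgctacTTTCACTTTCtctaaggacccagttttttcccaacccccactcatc
Serpinb9b: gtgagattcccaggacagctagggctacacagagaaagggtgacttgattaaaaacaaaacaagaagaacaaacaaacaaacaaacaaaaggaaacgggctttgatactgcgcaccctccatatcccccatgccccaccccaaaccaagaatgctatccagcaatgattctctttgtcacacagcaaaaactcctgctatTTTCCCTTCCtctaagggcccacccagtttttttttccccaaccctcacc
Serpinb2: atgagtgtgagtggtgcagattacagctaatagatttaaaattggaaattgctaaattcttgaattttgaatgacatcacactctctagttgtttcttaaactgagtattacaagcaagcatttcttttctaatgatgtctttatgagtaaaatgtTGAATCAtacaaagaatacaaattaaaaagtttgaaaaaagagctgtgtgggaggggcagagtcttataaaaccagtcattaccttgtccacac

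The Serpinb9 window held the interferon response core 46 to 37 bases before the start, and Serpinb6a held it 84 to 75 bases before 1 of its 2 starts. These letters were found in 2.98% of all 32851 promoter windows. The composite element was found in Serpinb9b alone, 50 to 41 bases before the start, against 2.30% of all windows. Serpinb9 and Serpinb9b were alike around these matches: over 43 aligned bases 38 were identical, from 67 to 25 bases before the start of Serpinb9 and from 71 to 29 bases before that of Serpinb9b. The Serpinb6b window held none of the 4 motifs, and its longest match to either Serpinb6a window was 8 bases. The AP-1 letters stood 94 to 88 bases before the first start of Serpinb2, and Serpinb8 held them 23 to 17 bases before its start, against 6.75% of all windows. The letters of the PU.1 type site, present in 2.44% of all windows, were in none of the 13. A match describes these letters only and is no evidence of binding.

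Lymphocytes and neutrophils also use several of these serpins, and their markers were read on the same arrays. Of 6 measured T and NK cell markers 1, Cd2, reached the floor, with its highest signal, 326, in the CX3CR1-negative cells. The summed signals of the 6 were 463 in the CX3CR1-negative cells, 365 in the CD11c-negative cells, 329 in the CX3CR1high cells and 220 in the DCs. In the DCs all 6 were under the floor, from the NK cell receptor Ncr1 at 1.03 to Cd3d at 76.3. Of 4 measured B and plasma cell markers 3 reached the floor. Their summed signals were 10285 in the DCs, 10584 in the CX3CR1-negative cells, 18853 in the CX3CR1high cells and 34689 in the CD11c-negative cells. In the DCs 1 of them, Jchain, reached the floor, at 10117.5. Of 8 neutrophil markers none reached the floor in the DCs, where the sum was 334, against 669 in the CX3CR1-negative cells, 2155 in the CX3CR1high cells and 9088 in the CD11c-negative cells. Each of these sums was lowest in the DCs, though the T and NK cell sum there is made of signals under the floor alone. The part of these cells in the serpin signals was not tested. The summed signal of epithelial markers was highest where Serpinb6a and Serpinb8 were highest, and so was each marker but Cdh1 (800.0 in the CX3CR1-negative cells against 639.95 in the CX3CR1high cells). All 11 measured reached the floor in the CX3CR1high cells, with a sum of 17419 against 7435 in the CX3CR1-negative cells, 4521 in the DCs and 3070 in the CD11c-negative cells. Summed macrophage markers had the order of Serpinb6a. They were at 122421 in the CX3CR1high cells, 57778 in the CD11c-negative cells, 43864 in the CX3CR1-negative cells and 8928.5 in the DCs. The part of epithelial cells or of macrophage content in the signals of Serpinb6a and Serpinb8 was not tested.

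The serpins of the complement system and of collagen folding had their highest signals in the CD11c-negative cells. Serping1, the C1 inhibitor that blocks the C1r and C1s proteases, was at 3938 in the CD11c-negative cells, 1129 in the CX3CR1-negative cells, 1036 in the CX3CR1high cells and 269 in the DCs. The CD11c-negative cells were 3.49-fold above the next population and 14.7-fold above the DCs, while the CX3CR1-negative cells and the CX3CR1high cells differed by 1.09-fold. Serpinh1, the collagen chaperone of the endoplasmic reticulum also called Hsp47, was at 1842 in the CD11c-negative cells, 765 in the CX3CR1high cells, 631 in the CX3CR1-negative cells and 182 in the DCs. A second Serpinh1 probe set gave 2373, 542, 875 and 140.5 in the same populations, so that the order of the CX3CR1high cells and the CX3CR1-negative cells differed between the sets, while both placed the CD11c-negative cells first and the DCs last. Serpina3n, an antichymotrypsin-like serpin of the acute phase response, was at 1147 in the CD11c-negative cells, 299.95 in the CX3CR1-negative cells, 188 in the CX3CR1high cells and 68.2, under the floor, in the DCs. The ratio of CD11c-negative cells over CX3CR1high cells, 6.11-fold, ranked 11 of 6628 measured on both sides in that direction.

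Fibroblast markers ran beside these 3 genes. All 8 markers were highest in the CD11c-negative cells and lowest in the DCs, with summed signals of 75312 in the CD11c-negative cells, 29145 in the CX3CR1-negative cells, 18626 in the CX3CR1high cells and 5748 in the DCs. As a share of its signal in the CD11c-negative cells, a marker stood at 20.8% to 38.9% in the CX3CR1high cells, 32.5% to 66.7% in the CX3CR1-negative cells and 3.33% to 11.2% in the DCs. In the same order Serping1 stood at 26.3%, 28.7% and 6.82%, Serpinh1 at 41.5%, 34.3% and 9.86%, and Serpina3n at 16.4%, 26.1% and 5.95%. Within the range of the markers lay Serping1 in the CX3CR1high cells and the DCs, Serpinh1 in the CX3CR1-negative cells and the DCs, and Serpina3n in the DCs. Serpinh1 was above it in the CX3CR1high cells, and the other values were below it. The Serpinh1 shares are those of its first probe set, where the CD11c-negative cells were 2.41-fold above the CX3CR1high cells. In the second set they were 4.38-fold above, so its share in the CX3CR1high cells was lower. Among the markers, the collagen Col3a1 was at 28325 in the CD11c-negative cells and 2360.5 in the DCs. Summed monocyte markers were highest in the CD11c-negative cells too, at 46497. They were at 24930.5 in the CX3CR1-negative cells, 23279.5 in the DCs and 6220 in the CX3CR1high cells. Of these markers, S100a4 was highest in the CX3CR1-negative cells instead (19758). The part of fibroblast RNA or of monocytes in the signals of these serpins was not tested.

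**Figure D2:**
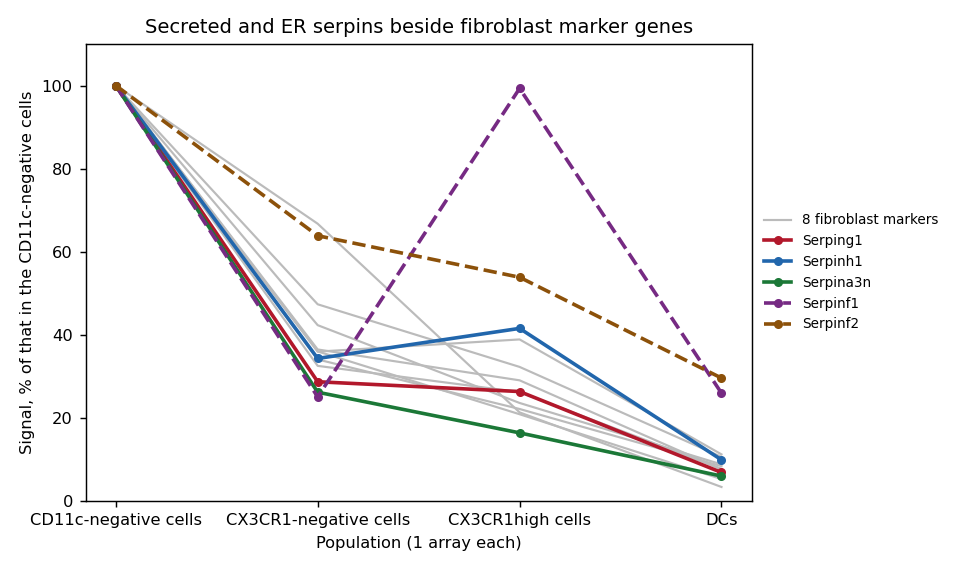
Signal of each gene as a percent of its own signal in the CD11c-negative cells, by population (1 array each), for 5 serpins of clades A, F, G and H (coloured) and 8 fibroblast markers (grey). Each gene is shown by 1 probe set. Serping1, Serpinh1 and Serpina3n run near the markers, whereas Serpinf1 is at 99.3% in the CX3CR1high cells, where no marker exceeds 38.9%.

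Serpinf1, the pigment epithelium-derived factor, departed from this pattern. Its signal was 804 in the CX3CR1high cells and 809 in the CD11c-negative cells, and 202 in the CX3CR1-negative cells and 209.8 in the DCs. Its first 2 populations differed by 1.01-fold and stood 3.83-fold to 3.997-fold above the other pair. The second Serpinf1 probe set did not show the CX3CR1high value: it was above the floor in the CD11c-negative cells alone (123), with 41.7 in the DCs, 19.6 in the CX3CR1-negative cells and 14.1 in the CX3CR1high cells. This pair of sets was singled out after its values were seen, and the high signal of Serpinf1 in the CX3CR1high cells rests on 1 probe set. Serpinf2, the inhibitor of plasmin and its neighbour on chromosome 11, was close to the floor, at 162 in the CD11c-negative cells, 104 in the CX3CR1-negative cells, 87.3 in the CX3CR1high cells and 47.9 in the DCs, and no pair was called.

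Counted by pair, the serpins differed more often than genes at large in most directions. The 6 pairs share 4 arrays and are not independent of each other, and serpins with both sides under the floor have no ratio. In the CX3CR1high cells against the DCs 5 serpins were higher and 4 lower of 11 with a ratio (out of 30), where 17.4% of all genes with a ratio were higher and 10.2% lower. Higher were Serpinb6a, Serpinb2, Serpinh1, Serping1 and Serpinf1, and lower were Serpinb6b, Serpinb9, Serpinb1a and Serpinb1b. The median log2 ratio of the 11 was 0.93, against 0.02 over all genes. In the CD11c-negative cells against the DCs 6 were higher and 4 lower of 12, where 17% of all genes were higher and 10.4% lower. In the CX3CR1-negative cells against the DCs 5 were higher and 2 lower of 13, against 13.7% and 8.7% of all genes. With the arrays set to equal medians these last counts became 5 and 5, since Serpinb9, Serpinb1b and Serpinb8 passed 2-fold, and the shares of all genes became 10.6% and 13.9%.

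Pairs within the populations gated on CD11b were counted in the same way. In the CX3CR1high cells against the CD11c-negative cells 2 serpins were higher, Serpinb6a and Serpinb9 (2.06-fold), and 4 lower of 11, Serpina3n, Serping1, Serpinh1 and Serpinb2, where 4.66% of all genes were higher and 5.83% lower. Against the CX3CR1-negative cells 3 were higher, Serpinb6a, Serpinf1 and Serpinb8, and 3 lower of 13, Serpinb9, Serpinb6b and Serpinb2, where 8.56% and 6.54% of all genes were. In the CX3CR1-negative cells against the CD11c-negative cells 3 were higher, Serpinb9, Serpinb6b and Serpinb1a, and 6 lower of 13, where 3.55% and 5.19% of all genes were, and 4 and 5 serpins were called once medians were made equal, beside 4.37% and 4.14% of all genes. The ratio of Serpinb9 in this pair ranked 4 and that of Serpinb6b 10 of 6592 measured on both sides. The median log2 ratios of the serpins in these 3 pairs were -0.01, -0.13 and -0.65, against -0.02, 0.02 and -0.06 over all genes.

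**Figure D3:**
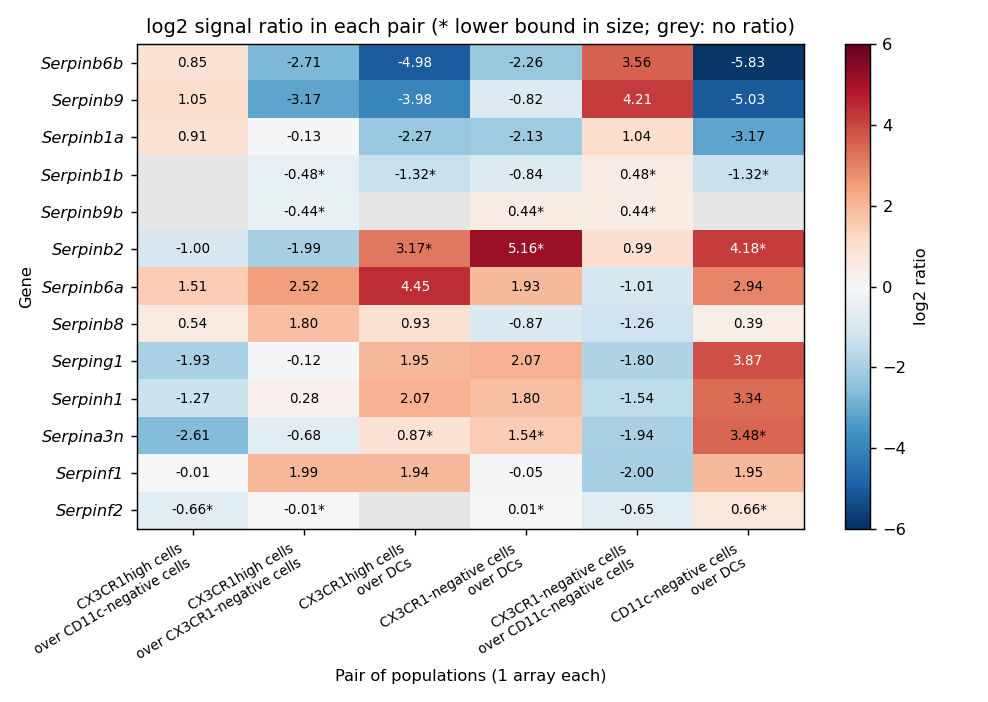
The log2 signal ratio of the 13 serpin genes in the 6 pairs of populations (columns, first over second population, 1 array each). Red is higher in the first population, blue in the second, an asterisk marks a bound and grey a pair with both signals under the floor; Serpinb6b and Serpinb6a have opposite colours in 5 of the 6 pairs.

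Some serpins stood apart in 1 population. At least 2-fold above the next population were Serpinb6b and Serpinb1a in the DCs, Serpina3n, Serping1 and Serpinh1 in the CD11c-negative cells, Serpinb6a in the CX3CR1high cells and none in the CX3CR1-negative cells. Of all 7847 genes reaching the floor 4.13%, 2.17%, 2.93% and 0.561% stood apart in this way in the same populations.

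**Figure D4:**
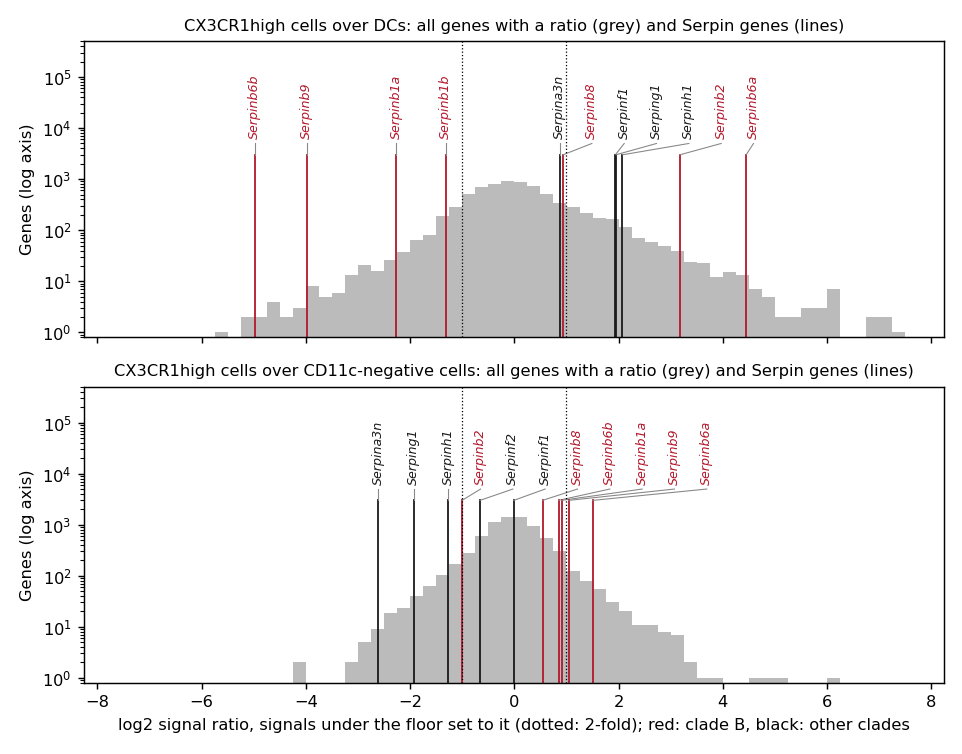
Histogram of the log2 signal ratio of all genes with a ratio (grey, log count axis) for the CX3CR1high cells over the DCs (top) and over the CD11c-negative cells (bottom), with vertical lines for serpins of clade B (red) and other clades (black). In the top panel Serpinb6b (-4.98) and Serpinb6a (4.45) lie in opposite tails, and in the bottom panel Serpina3n (-2.61) is the lowest serpin.

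Proteases that serpins inhibit were read from lists drawn up by known function. The lists cover serpins in general and are not limited to targets of the measured ones. Of 32 measured serine proteases 14 reached the floor on at least 1 array. Granzyme B (Gzmb) was above it in the CD11c-negative cells alone (151), as was granzyme A (Gzma, 104), and both were at 61.7 to 98.8 elsewhere. The neutrophil proteases Ctsg, Elane and Prtn3 were under the floor on every array, with highest signals of 19.8, 46.8 and 97.8. Urokinase, Plau, the target of Serpinb2, was at 683 in the CX3CR1high cells, 203 in the CX3CR1-negative cells, 146 in the CD11c-negative cells and 37.9 in the DCs, and its receptor Plaur at 6742, 4914, 6029 and 1475. Tissue plasminogen activator, Plat, was highest in the CX3CR1-negative cells (947), where Serpinb2 also was, with 318 to 450.1 in the other populations. The target of Serping1, C1s1, was, like its inhibitor, highest in the CD11c-negative cells (2031) and lowest in the DCs (127), with 512 in the CX3CR1high cells and 506 in the CX3CR1-negative cells. Against the DCs the CX3CR1high cells had 7 of 10 serine proteases with a ratio higher and 0 lower, against the CD11c-negative cells 4 of 14 higher and 3 lower, and against the CX3CR1-negative cells 4 of 11 higher and 1 lower. Over all genes 17.4%, 4.66% and 8.56% were higher and 10.2%, 5.83% and 6.54% lower in these 3 comparisons, shares that apply to the related lists below as well. Klk1, Cela1, Plau and Tmprss2 were higher in each of them. Epithelial markers moved with them, 8, 11 and 7 of 11 being higher in the same comparisons, and their part in these counts was not tested.

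The cysteine proteases that some clade B serpins can inhibit were all measurable, 8 of 8. In the CX3CR1high cells 4 were higher and 0 lower than in the DCs, 3 and 0 against the CX3CR1-negative cells and 1 and 0 against the CD11c-negative cells. The lysosomal protease Ctsl was among them each time, at 18555 in the CX3CR1high cells, 8953 in the CD11c-negative cells, 4547 in the CX3CR1-negative cells and 1734 in the DCs, the order that Serpinb6a also had. Of binding partners and cofactors of serpins 5 of 8 with a ratio were higher and 1 lower in the CX3CR1high cells than in the DCs. Lrp1, the receptor that clears complexes of serpins and proteases, was at 1604 against 137, and Procr, the receptor of protein C, at 1465 against 3084. This list had 0 higher and 1 lower of 8 against the CD11c-negative cells, and 1 and 1 of 8 against the CX3CR1-negative cells. Among inhibitors of other families 8 of 13 were higher and 2 lower than in the DCs, 3 of 15 higher and 2 lower than in the CD11c-negative cells and 3 of 14 higher and 2 lower than in the CX3CR1-negative cells. The leukocyte protease inhibitor Slpi was at 4351 in the CD11c-negative cells, 894 in the CX3CR1-negative cells, 636 in the CX3CR1high cells and 143 in the DCs, and the metalloproteinase inhibitor Timp2 at 5904 in the CX3CR1high cells and 344 in the DCs.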

How the data were processed

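RNA of 4 sorted populations was read on 1 Affymetrix 3' array each. Per the submitters' processing notes MAS5 was used. The authors deposited 1 linear intensity for each probe set, scaled to a common trimmed mean, as the values show. No further normalization was applied. Of 22690 probe sets 64 were controls, and the 20380 that name exactly 1 gene in the platform's table were used. All 30 serpin gene IDs matched RefSeq with 0 symbols changed. A gene with several probe sets was read from the one of highest average log2 signal, and from an _x_at set only where it had no other. Signals under the pooled median (103) were set to it, and a call was 2-fold. Every serpin at or above the floor on 1 array is named, with further genes only from lists. The members and lists were chosen with earlier results of these data known. The call rule was tested on simulated data whose planted changes were all larger than 2-fold and lay in genes well above the floor. That test therefore does not bear on calls near 2-fold or near the floor. The alternatives tried are given in the closing section. Calculations used Python 3.11.15 with pandas 2.3.3.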

Additional observations from a re-analysis of the deposited data

How the results depend on the processing

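The 47 called serpin ratios under the 8 alternatives gave 362 of 376 possible values. The other 14 had none: without shared probe sets Serpinb6a (6) and Serpinh1 (5) were not measured, and with the floor at the 75th percentile both signals were under it for 1 ratio of Serpina3n and 2 of Serpinb1b. Of the 362 values, 344 stayed at least 2-fold the same way, 18 fell under 2-fold and 0 turned. The log2 ratio of Serpinf1 in the CX3CR1high cells over the CX3CR1-negative cells went from 1.99 to 0.05 with the mean over probe sets, and over the DCs from 1.94 to 0.05. Ratios near 2-fold, such as Serpinb2 and Serpinb9 in the CX3CR1high cells over the CD11c-negative cells, crossed the limit under small changes (-0.98 for Serpinb2 and 0.998 for Serpinb9 with the pseudocount).

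Counts depended mostly on the floor. With the floor at the 25th percentile, a signal of 22.9, 20 serpins reached it in place of 13, 6 were lower in the CX3CR1high cells than in the CX3CR1-negative cells (7.63% of all genes), and 6 were higher in the CX3CR1-negative cells than in the CD11c-negative cells (5.43%). At the 75th percentile, a signal of 453, 1 serpin was higher in the CX3CR1high cells than in the CD11c-negative cells, 3 were higher than in the DCs, and 3 were higher in the CX3CR1-negative cells than in the DCs, beside 3.71%, 13.8% and 10.2% of all genes. The same counts of 1, 3 and 3 were found without probe sets of shared types (_s_at, _x_at and _a_at), which leaves fewer genes, beside 4.97%, 17.5% and 13.9%. With no floor, the CX3CR1high cells had 8 serpins higher and 8 lower than the CD11c-negative cells, 6 and 10 against the CX3CR1-negative cells, and 9 and 11 against the DCs. The CX3CR1-negative cells then had 9 higher and 6 lower than the DCs and 12 and 10 against the CD11c-negative cells, which had 10 and 11 against the DCs. With no floor the shares of all genes rose too: in the same order 12.1%, 14.6%, 23.7%, 21.6%, 11.3% and 24.98% were higher and 13.9%, 13.3%, 15.0%, 13.4%, 13.3% and 15.2% lower. With a pseudocount at the 25th percentile, 1 serpin was higher in the CX3CR1high cells than in the CD11c-negative cells and 6 were lower than in the CX3CR1-negative cells, beside 4.86% and 5.74% of all genes. With equal medians, 5 were lower in the CX3CR1-negative cells than in the DCs (13.9% of all genes), and the median log2 ratio of all genes in the CX3CR1high cells over the DCs went from 0.02 to -0.27. Other counts under these settings, and all counts with quantile normalization and the mean over probe sets, stayed within 1.5 times. The number reaching the floor has no value with no floor or with a pseudocount. No paired analysis was possible because each population has 1 array.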
